A study of Mus musculus with 36 samples.

Results

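The 9 genes described here were Brca1, Brca2, Palb2, Bard1, Fanca, Fancd2, Fanci, Blm and Rad54l, out of 24411 genes listed for each RNA-seq library. They were chosen by name, as genes of homologous recombination and of the Fanconi anaemia pathway, with earlier results of these data known. All 9 were listed. In cultured mouse mesenchymal stem cells (MSCs), 8 of the 9 were higher in cells from lung than in cells from the other tissues. Of all tested genes, 22.3% were. All 9 had their highest mean in lung MSCs and their next highest in adipose MSCs. None was called between the bone marrow sources, which is near the 12.8% of tested genes called there, and the low counts in marrow limit what could be detected. Rad54l, the most abundant of the 9 in lung MSCs, went from 0.273 ± 0.256 TPM in femoral marrow MSCs to 5.74 ± 0.950 TPM in lung MSCs (SD, n = 3 each). TPM is a level scaled for transcript length and library size.

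MSCs were grown from femoral bone marrow (fBM-MSCs), vertebral bone marrow (vBM-MSCs), adipose tissue (A-MSCs) and lung (P-MSCs, for pulmonary). The donors were C57BL6/J mice 8 weeks old. No genetic change or experimental treatment was reported for any group, and the cells of all groups were seeded in medium with a Rock inhibitor. The study took its 4 tissues from the same 3 mice, and its methods do not say which libraries came from 1 mouse. Marrow cells were released by crushing the bones and lung and fat cells by collagenase, and all were expanded in MSC medium and used within a few passages, so between marrow and the other tissues isolation method and tissue cannot be told apart. RNA-seq covered 3 libraries each from femur, fat and lung and 2 from vertebra, and the ATAC-seq data, which map open chromatin by the insertions of the Tn5 transposase, comprised 1 pooled peak list per tissue.

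Homologous recombination repairs a DNA double-strand break by copying the intact sister chromatid, and is therefore used mainly in the S and G2 phases of the cell cycle. Brca1 and its ring-finger partner Bard1 promote the resection of the broken end, and Palb2 links Brca1 to Brca2, which acts on the resected single strand. The motor protein Rad54l drives strand exchange, and the helicase Blm resects ends and dissolves the joined intermediates. The Fanconi pathway removes crosslinks between the strands: a core complex containing Fanca attaches ubiquitin to the Fanci-Fancd2 pair, which then recruits nucleases and hands the break to recombination.

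The libraries held 19569650 to 40517739 expected counts, with a median of 34414200. MSC surface genes were abundant, with summed TPM of Itgb1, Cd44, Ly6a and Vcam1 between 983 and 2340 in every library. Of the genes that MSCs should lack, Ptprc stayed at or below 0.35 TPM. Cd34 reached 79.2 and 72.7 TPM in 2 fBM-MSC libraries and 10.2 TPM in the third, and Pecam1 was at most 3.84 TPM. Summed TPM of 8 epithelial genes was 41.3 to 77.7 in A-MSCs and 54.3 to 64 in P-MSCs against 2.75 to 12.2 in the marrow MSCs, and most of it was keratins: Krt19 was at 51.7 to 59.8 TPM in P-MSCs and 17.1 to 18.9 TPM in A-MSCs, Krt8 at 11.1 to 21.0 TPM and Krt18 at 11.1 to 27.1 TPM in A-MSCs. Epcam, Cdh1 and Sftpc were at or below 0.41 TPM in all 11 libraries. Summed TPM of 10 macrophage genes was lower in P-MSCs (14.7 to 16.9) than in fBM-MSCs (40.5 to 52.1), with Adgre1 and Itgam at or below 0.34 TPM in all libraries, whereas Csf1r was at 2.21 to 2.76 TPM in P-MSCs and 5.46 to 6.56 TPM in A-MSCs against 0.6 to 1.16 TPM in the marrow MSCs. Summed TPM of 8 endothelial genes was 3.97 to 14.3 in 10 libraries and 55.5 in A-MSC replicate 1, where Emcn was at 49.5 TPM and Cdh5 at 0.81 TPM. The part of such cells in the results was not tested.

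These were rare transcripts. The summed level of the 9 genes was 26.1 ± 2.84 TPM in P-MSCs (SD, n = 3), 9.31 ± 1.25 TPM in A-MSCs (n = 3), 2.66 ± 0.750 TPM in vBM-MSCs (n = 2) and 2.89 ± 0.257 TPM in fBM-MSCs (n = 3). The lowest A-MSC library (7.97 TPM) was above the highest marrow library (3.19 TPM), and the lowest P-MSC library (23.3 TPM) was above the highest A-MSC library (10.45 TPM). All 9 passed the filter on low counts (CPM, the count scaled to library size, of 1 or more in 2 or more libraries), and all 9 also passed it when the P-MSC libraries were left out. Fewer cells of a type and less RNA per cell cannot be told apart in such bulk libraries. The plot of levels by library shows P-MSCs highest by mean for each gene, while the A-MSC libraries overlapped the marrow libraries for Brca2, Palb2, Bard1 and Blm.

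**Figure D1:**
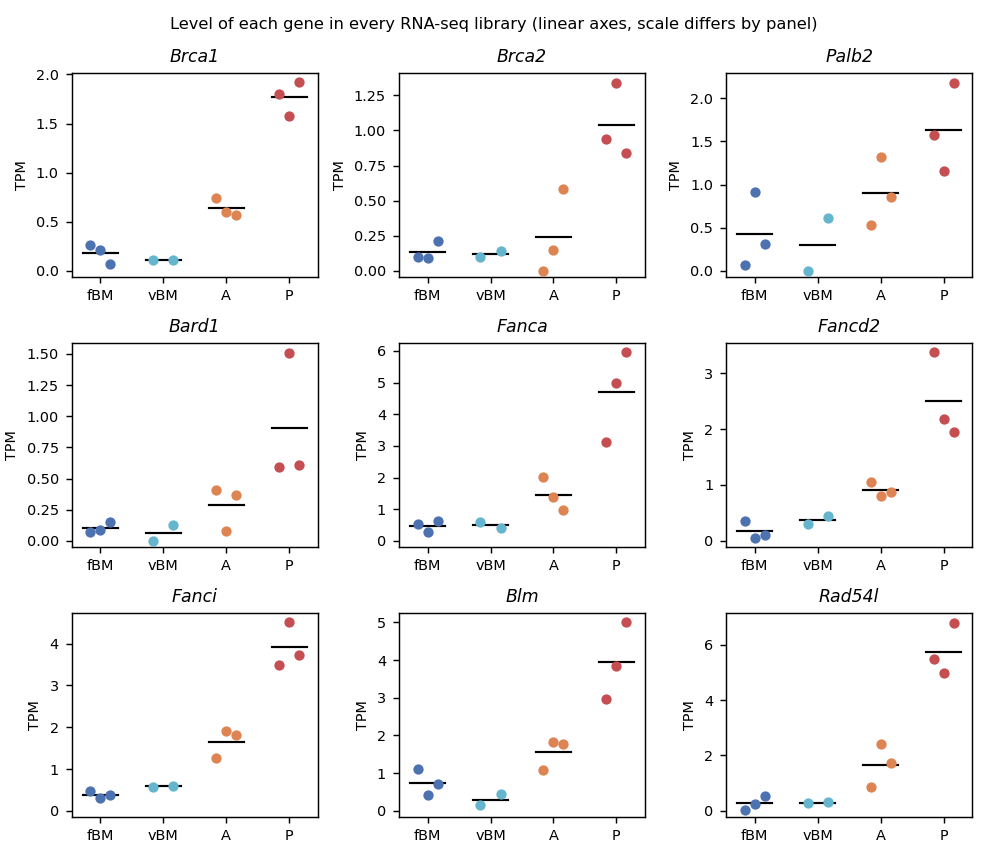
Level in TPM (linear vertical axes that differ by panel) of each of the 9 genes in every RNA-seq library, by tissue of origin: each dot is 1 library and each line the mean of a tissue. The 3 P-MSC libraries lie above all 8 others in every panel except Palb2.

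Brca1 (chr11:101488761-101551955, GRCm38, minus strand) was at 0.26, 0.21 and 0.07 TPM in the fBM-MSC libraries, 0.11 and 0.11 TPM in vBM-MSCs, 0.74, 0.60 and 0.57 TPM in A-MSCs and 1.80, 1.58 and 1.92 TPM in P-MSCs. The 3 levels (marrow, fat, lung) did not overlap. Brca1 was higher in P-MSCs than in the mean of the other tissues by 2.79 ± 0.33 on the log2 scale (SE; adjusted p = 5e-05, edgeR quasi-likelihood test with Benjamini-Hochberg adjustment over 12509 genes). Unless another method is named, every adjusted p in this section came from this test. With a library left out, it was adjusted over 12413 to 12483 genes. Its ring-finger partner Bard1 (chr1:71027535-71103141, minus strand) was less even: it was at 0.59, 1.51 and 0.61 TPM in P-MSCs, 0.41, 0.08 and 0.37 TPM in A-MSCs, 0 and 0.13 TPM in vBM-MSCs and 0.07, 0.09 and 0.15 TPM in fBM-MSCs. The P-MSC libraries were again the highest, but 1 of them was well above the other two. The log2 fold change of Bard1 was 2.71 ± 0.73 (SE; adjusted p = 0.0101). Its call rests on P-MSC replicate 2, since the remaining libraries gave 2.13 (adjusted p = 0.081).

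Brca2 (chr5:150522297-150570147, plus strand), which Palb2 brings to Brca1, was at 0.94, 1.34 and 0.84 TPM in P-MSCs, 0, 0.15 and 0.58 TPM in A-MSCs, 0.10 and 0.14 TPM in vBM-MSCs and 0.10, 0.09 and 0.21 TPM in fBM-MSCs. The A-MSC libraries spanned the whole marrow range and went above it, from no count to 166 expected counts, and the P-MSC libraries were above all of them. The log2 fold change in P-MSCs was 2.60 ± 0.77 (SE; adjusted p = 0.0169), and the call was lost without P-MSC replicate 2 (2.38, adjusted p = 0.0719).

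Palb2 (chr7:122107262-122132980, minus strand), the bridge between Brca1 and Brca2, was the exception. It was at 1.57, 1.16 and 2.18 TPM in P-MSCs, 0.53, 1.32 and 0.85 TPM in A-MSCs, 0 and 0.61 TPM in vBM-MSCs and 0.07, 0.91 and 0.31 TPM in fBM-MSCs. One A-MSC library was above the lowest P-MSC library, and the marrow libraries ran from no count to 0.91 TPM. The log2 fold change in P-MSCs was 1.73 ± 0.81 (SE; adjusted p = 0.103), which did not pass the test. It passed when fBM-MSC replicate 2 was left out (2.18, adjusted p = 0.0424) or vBM-MSC replicate 2 was left out (4.23, adjusted p = 0.00434). A library without a count, such as vBM-MSC replicate 1 for Palb2 and Bard1 or A-MSC replicate 1 for Brca2, allows up to 3 counts by counting error alone, which is 0.0998 and 0.0944 CPM in those libraries.

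The Fanconi genes were all higher in P-MSCs. Fanca (chr8:123266294-123318651, minus strand), of the core complex, was at 3.11, 5.0 and 5.96 TPM in P-MSCs, 2.01, 1.37 and 0.97 TPM in A-MSCs, 0.61 and 0.41 TPM in vBM-MSCs and 0.52, 0.29 and 0.63 TPM in fBM-MSCs. Its log2 fold change in P-MSCs was 2.58 ± 0.30 (SE; adjusted p = 4.91e-05). The ubiquitinated pair followed. Fancd2 (chr6:113531640-113597020, plus strand) was at 3.37, 2.18 and 1.94 TPM in P-MSCs, 1.06, 0.80 and 0.87 TPM in A-MSCs, 0.31 and 0.44 TPM in vBM-MSCs and 0.36, 0.05 and 0.11 TPM in fBM-MSCs, which is 2.58 ± 0.43 higher in P-MSCs on the log2 scale (SE; adjusted p = 0.000514). Fanci (chr7:79392312-79450266, plus strand) was at 3.49, 4.52 and 3.74 TPM in P-MSCs, 1.26, 1.90 and 1.81 TPM in A-MSCs, 0.58 and 0.59 TPM in vBM-MSCs and 0.47, 0.30 and 0.37 TPM in fBM-MSCs, which is 2.31 ± 0.22 higher on the log2 scale (SE; adjusted p = 1e-05). For all 3 Fanconi genes, marrow, fat and lung libraries fell into 3 ranges without overlap.

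Blm (chr7:80454993-80535148, minus strand), the helicase mutated in Bloom syndrome, had the highest mean of the 9 in fBM-MSCs. It was at 2.97, 3.85 and 5.0 TPM in P-MSCs, 1.09, 1.82 and 1.76 TPM in A-MSCs, 0.15 and 0.45 TPM in vBM-MSCs and 1.10, 0.41 and 0.70 TPM in fBM-MSCs. The lowest A-MSC library lay just under the highest fBM-MSC library, while the P-MSC libraries stood clear of both. The log2 fold change in P-MSCs was 2.36 ± 0.34 (SE; adjusted p = 0.000208). Rad54l (chr4:116094261-116123700, minus strand), the motor of strand exchange, was at 5.47, 4.96 and 6.80 TPM in P-MSCs, 0.87, 2.41 and 1.72 TPM in A-MSCs, 0.27 and 0.31 TPM in vBM-MSCs and 0.03, 0.25 and 0.54 TPM in fBM-MSCs. It was the most abundant of the 9 in P-MSCs, and its log2 fold change in P-MSCs, 3.36 ± 0.45 (SE; adjusted p = 0.000121), was the highest of the 9 with all libraries. Without vBM-MSC replicate 2, which leaves for vBM-MSCs the library with no count of Bard1 and Palb2, those of Bard1 (4.70) and Palb2 (4.23) were above that of Rad54l (3.37).

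In this contrast 8 of 9 genes were called higher in P-MSCs, while 22.3% of the 12509 tested genes were called higher and 44.6% were called in either direction. The 3 P-MSC libraries were above every other library for 8 of 9 genes, against 20.1% of tested genes. Across the 4 tissues together, 7 of 9 genes differed, against 60.6% of tested genes, and the exceptions were Brca2 (adjusted p = 0.0595) and Palb2 (adjusted p = 0.234). The exceptions were also the genes with the widest spread between libraries of a tissue: their biological coefficients of variation were 85.0% and 86.8%, against 24.5% for Fanci, 33.7% for Brca1 and a median of 19.8% over all tested genes.

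The pairs of tissues shared libraries, so their values are given side by side and are not independent. P-MSCs were higher than fBM-MSCs for 8 of 9 genes, where 23.0% of tested genes were higher, and higher than vBM-MSCs for 7 of 9, where 17.7% were higher. Palb2 was called in neither pair, and Brca2 was not called against vBM-MSCs (adjusted p = 0.0731). Between the non-bone marrow sources, 3 of 9 genes were higher in P-MSCs than in A-MSCs, where 14.9% of tested genes were higher: Fanca by 1.5 ± 0.39 (adjusted p = 0.0139), Fanci by 1.04 ± 0.28 (adjusted p = 0.0152) and Brca1 by 1.29 ± 0.42 (adjusted p = 0.0366), as log2 fold changes with SE. Rad54l had a larger difference with more spread (1.6 ± 0.57, adjusted p = 0.0538). All 9 differences had the same sign, and the count of calls ranged from 1 to 6 as single fBM-MSC, A-MSC or P-MSC libraries were left out. It was 1 without A-MSC replicate 1, P-MSC replicate 2 or P-MSC replicate 3, where 11.6%, 10.5% and 10.3% of tested genes were higher. Without fBM-MSC replicate 1 it was 6, where 15.7% were higher.

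A-MSCs in turn stood above the marrow MSCs. Against fBM-MSCs, Rad54l (2.66 ± 0.63), Fancd2 (2.53 ± 0.60), Fanci (2.19 ± 0.30), Brca1 (1.88 ± 0.45) and Fanca (1.64 ± 0.41) were higher in A-MSCs (log2 fold changes with SE), 5 of 9 where 20.3% of tested genes were higher. Against vBM-MSCs the count was also 5 of 9, where 12.4% were higher, with Blm (2.51 ± 0.55, adjusted p = 0.00704) in place of Fancd2 (1.40 ± 0.64, adjusted p = 0.135). The count fell to 3 without A-MSC replicate 2, where 9.34% were higher. The 3 A-MSC libraries were above all 5 marrow libraries for Brca1, Fanca, Fancd2, Fanci and Rad54l, 5 of 9 against 13.3% of tested genes. Marrow against non-bone marrow MSCs, the grouping on which the study chose its tissues, gave 7 of 9 genes lower in marrow, where 22.4% of tested genes were lower.

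Between the marrow sources 0 of 9 genes differed by edgeR, where 12.8% of tested genes were called. At an unadjusted p under 0.05 edgeR called 1 gene, Blm, with a log2 fold change of vBM-MSCs over fBM-MSCs of -1.35 ± 0.54 (SE; adjusted p = 0.125), and DESeq2 called 0 at an adjusted p under 0.05. Fancd2 was at 0.375 ± 0.0919 TPM in vBM-MSCs (SD, n = 2) and 0.173 ± 0.164 TPM in fBM-MSCs (n = 3), which lay within the spread (1.14 ± 0.65 on the log2 scale, adjusted p = 0.284). No marrow library held more than 80 expected counts of any of the 9 genes, and the SE of these differences, 0.33 to 1.2 on the log2 scale, limit what could be detected. The plot of contrasts sets these differences side by side.

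**Figure D2:**
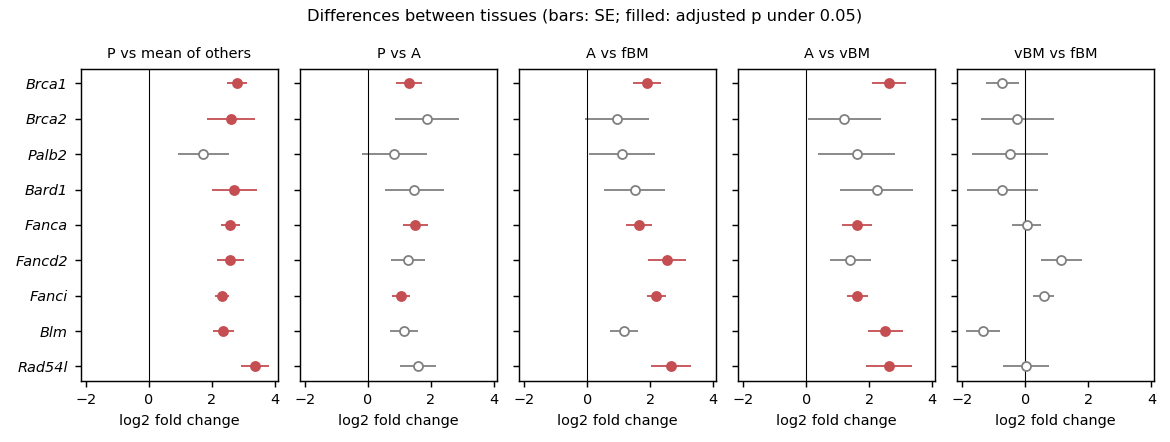
Log2 fold change (horizontal axes, bars are SE) of the 9 genes in 5 contrasts, with filled points for an adjusted p under 0.05 by edgeR. The points lie right of 0 in the first 4 panels, with 8, 3, 5 and 5 genes called, and scatter around 0 between vBM-MSCs and fBM-MSCs, with 0 called.

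The share of each gene in the summed level of the 9 was compared as well. Of the summed TPM of the 9 genes, Rad54l made up 22% ± 2.57 in P-MSCs (SD, n = 3), 17.4% ± 6.11 in A-MSCs (n = 3), 11.2% ± 2.09 in vBM-MSCs (n = 2) and 9.37% ± 8.24 in fBM-MSCs (n = 3). Blm made up 25.1% ± 10.8 in fBM-MSCs but 10.6% ± 5.0 in vBM-MSCs, while A-MSCs had 16.5% ± 2.54 and P-MSCs 14.9% ± 2.26, with no order along the sum. Fanca held nearly the same share, 16.3% ± 4.72 in fBM-MSCs and 17.7% ± 3.83 in P-MSCs, and Brca1 did too, at 6.36% ± 3.56 and 6.80% ± 0.848. The ranges of fBM-MSCs and P-MSCs were apart for Rad54l (1.01% to 17.5% against 19.0% to 23.5%) and overlapped for the others named here. In P-MSCs the order by mean TPM was Rad54l (5.74), Fanca (4.69), Blm (3.94), Fanci (3.92), Fancd2 (2.50), Brca1 (1.77), Palb2 (1.64), Brca2 (1.04) and Bard1 (0.903). The libraries of the first 4 overlapped from neighbour to neighbour, as did those of the last 4, and Fancd2 (1.94 to 3.37 TPM) was below every Fanci library and above every Brca1 library, and overlapped Fanca, Blm and Palb2.

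Across the 11 libraries, Pearson's r on log2(TPM + 1) between pairs of the 9 genes ran from 0.57 (Palb2 and Bard1) to 0.968 (Fanci and Rad54l), with a median of 0.861 over 36 pairs. After each library was set against the mean of its tissue, the median r was -0.085 and the range -0.718 to 0.655. The 9 genes thus varied together between tissues, and libraries of 1 tissue showed no shared rise or fall at these depths. The points share their libraries and depth.

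Other genes of the same pathways were counted in lists set by function. Of 43 partners in recombination, 26 were higher in P-MSCs than in the other tissues, where 22.3% of tested genes were, and 1 was lower (2 without fBM-MSC replicate 2 or 3, vBM-MSC replicate 2 or A-MSC replicate 2), with a median log2 fold change of 0.96, beside 2.58 for the 9 genes and -0.00 for all tested genes. Exo1, an exonuclease of end resection, was the most changed (3.56 ± 0.20, adjusted p = 3.42e-07), followed by the resection nuclease Dna2 (3.44 ± 1.03, adjusted p = 0.0178) and Eme1, which forms a structure-specific nuclease with Mus81 (3.03 ± 0.39, adjusted p = 8.8e-05). Bre, a subunit of the Brca1-A complex that holds Brca1 back from DNA ends, was the one gene lower in P-MSCs (-0.78 ± 0.10, adjusted p = 0.000118), at 44.5 ± 3.37 TPM against 64.8 ± 4.69 TPM in A-MSCs and 73.1 ± 6.35 TPM in fBM-MSCs (SD, n = 3 each).

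Of the remaining Fanconi genes, 10 of 20 tested were higher in P-MSCs, beside the same 22.3%, and 0 lower, with a median log2 fold change of 0.60. The highest were Fancb of the core complex (2.34 ± 0.45, adjusted p = 0.00135), Usp1, which removes the ubiquitin from Fancd2 (1.86 ± 0.13, adjusted p = 1.31e-06), and Apitd1, a histone-fold partner of Fancm (1.551 ± 0.26, adjusted p = 0.00055). Fan1 did not pass the filter on low counts. Of 10 checkpoint genes that signal breaks and stalled forks, 7 were higher (against 22.3%) and 0 lower, led by Clspn (3.86 ± 0.48, adjusted p = 7.01e-05), the adaptor through which Atr activates Chek1, by Chek1 itself (2.81 ± 0.41, adjusted p = 0.000208) and by Topbp1 (1.67 ± 0.19, adjusted p = 3.38e-05).

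Repair routes that do not use a sister chromatid were counted as well. In end joining, 9 of 18 genes were higher (against 22.3% of tested genes) and 1 lower (median log2 fold change 0.52): Polq, the polymerase of the back-up route that uses short homologies, was higher by 3.21 ± 0.59 (adjusted p = 0.00102) from means of 0.0267 to 0.1 TPM in the other tissues. Rif1 (1.65 ± 0.48, adjusted p = 0.0154) and Parp1 (1.35 ± 0.20, adjusted p = 0.000204) were also higher, and Xrcc4, the partner of ligase IV in classical end joining, was lower (-0.58 ± 0.14, adjusted p = 0.0068). In nucleotide excision repair, 6 of 20 were higher, near the 22.3% of all tested genes, and 1 lower (median 0.18), and 3 were higher without P-MSC replicate 1, with Ercc6 (1.37 ± 0.27, adjusted p = 0.00167) and Ercc2 (0.59 ± 0.13, adjusted p = 0.00315) higher and Cetn2 lower (-0.52 ± 0.13, adjusted p = 0.00667).

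**Figure D3:**
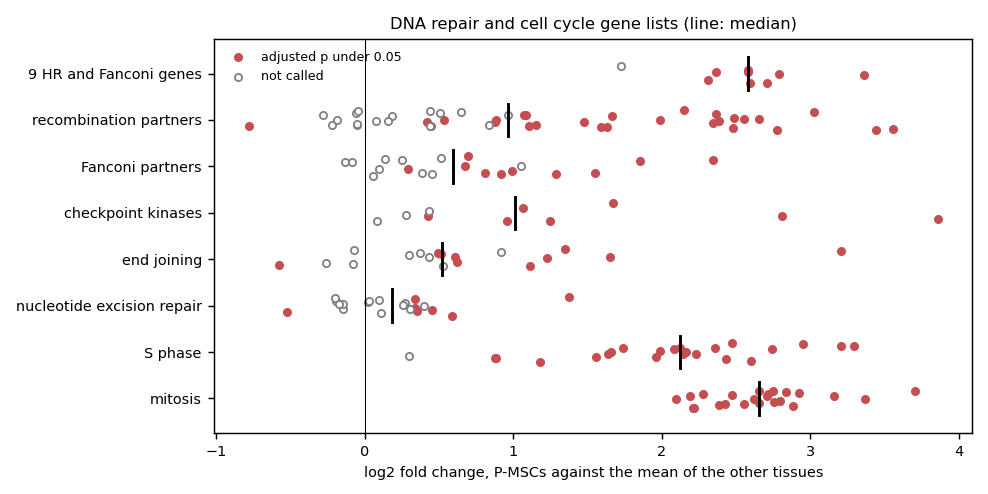
Log2 fold change in P-MSCs against the mean of the other tissues (horizontal axis) for each tested gene of 8 lists, with filled points for an adjusted p under 0.05 and a line at each median. The medians are 2.58 for the 9 genes, 0.96, 0.60, 1.01, 0.52 and 0.18 for the other repair lists, and 2.12 and 2.66 for the S phase and mitosis lists.

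The summed levels of genes of DNA replication and of mitosis were also highest in P-MSCs and next highest in A-MSCs. Summed TPM of 23 S phase genes was 1760 to 1870 in P-MSCs and 983 to 1010 in A-MSCs, against 456 to 478 in vBM-MSCs and 492 to 582 in fBM-MSCs, and that of 23 mitosis genes was 1890 to 2020, 988 to 1010, 227 to 249 and 119 to 216. In P-MSCs against the others, 22 of 23 S phase genes were higher (median log2 fold change 2.12), where 22.3% of tested genes were. Among them were Pcna (1.18 ± 0.07, adjusted p = 5.36e-07), Mcm5 (2.74 ± 0.13, adjusted p = 1.4e-07), Cdc6 (3.30 ± 0.21, adjusted p = 7.78e-07), Uhrf1 (3.21 ± 0.20, adjusted p = 6.16e-07) and Mcm10 (2.96 ± 0.25, adjusted p = 4.29e-06). The gene not called, named after its values were seen, was E2f1, one of the transcription factors of S phase genes (0.30 ± 0.13, adjusted p = 0.0824), at 16.4 ± 1.34 TPM in fBM-MSCs, 9.50 ± 2.04 TPM in A-MSCs and 17.5 ± 1.69 TPM in P-MSCs (SD, n = 3 each). All 23 mitosis genes were higher (median 2.66), beside the same 22.3%, with Mki67 at 3.71 ± 0.24 (adjusted p = 7.84e-07), Mybl2 at 3.37 ± 0.36 (adjusted p = 2.55e-05), Cenpe at 3.16 ± 0.28 (adjusted p = 5.49e-06) and Top2a at 2.63 ± 0.23 (adjusted p = 6.17e-06). Mki67 was at a mean of 5.98 TPM in P-MSCs, 0.52 TPM in A-MSCs and 0.447 TPM in fBM-MSCs, whereas Top2a was at 40.2, 15.4 and 3.45 TPM.

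The share of cells in S phase was not measured, and 99.4% of the variance of the mean of both lists lay between tissues. The tissue of origin and the level of these genes therefore cannot be told apart. Of the 9 genes, Rad54l changed more in P-MSCs than each of the 23 S phase genes, Brca1 more than 87.0% of them, Fanci more than 65.2% and Palb2 more than 30.4%. Against the mitosis genes, Rad54l was above 91.3%, Brca1 above 69.6%, Fanci and Blm above 21.7% and Palb2 above none. Between A-MSCs and fBM-MSCs, Brca2 (0.95 ± 1.02) and Blm (1.16 ± 0.45) changed less than the median S phase gene (1.52) and Rad54l more (2.66 ± 0.63), as log2 fold changes with SE. Against vBM-MSCs, Blm (2.51 ± 0.55) was above the median S phase gene (1.6) and Brca2 (1.21) below it. These positions carry the errors given above.

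The genes most like the group were found by correlating every tested gene with its mean on log2(TPM + 1) over the 11 libraries. The first was Exo1 (r = 0.991), followed by the nuclear pore gene Nup85 (0.991), Noc4l, Mrpl40, Eif4h, the replicative helicase subunit Mcm2 (0.988), the kinetochore gene Ska3 (0.988), 1810009A15Rik, the histone methyltransferase Ezh2 (0.987) and Ggt1 (0.987). Of the first 100 genes, 12 were among the 46 S phase and mitosis genes. Only 3 of the first 10 remained on TPM without logarithm and 2 by Spearman's rho. With 4 tissue levels behind 11 points, 6.23% of all genes had an r above 0.9, and these r are a description.

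Several of the 9 genes start next to, or overlap, another gene. Brca1, Palb2 and Fancd2 each lie head to head with a widely used gene, which by the RefSeq annotation starts at base -152, -95 and -44 from the start of the gene itself. None of these neighbours was higher in P-MSCs. Nbr1, an autophagy receptor next to Brca1, was lower in P-MSCs (-0.37 ± 0.11, adjusted p = 0.0175), at 26.6 ± 3.35 TPM in fBM-MSCs, 13.2 ± 1.09 TPM in A-MSCs and 16.8 ± 2.04 TPM in P-MSCs. Dctn5, a dynactin subunit next to Palb2, was lower as well (-0.25 ± 0.08, adjusted p = 0.0281), and Emc3, a subunit of the ER membrane complex next to Fancd2, was at 106 ± 9.30 TPM in fBM-MSCs and 104 ± 5.99 TPM in P-MSCs (-0.10 ± 0.08, adjusted p = 0.294). The start of the long noncoding RNA 2510003B16Rik lies at base -150 of Rad54l. It did not pass the filter on low counts, and its mean was 0.737 TPM in fBM-MSCs, 0.447 TPM in A-MSCs and 0 in P-MSCs and vBM-MSCs. In P-MSCs the neighbours of Brca1, Palb2 and Fancd2 still far more abundant than these genes.

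**Figure D4:**
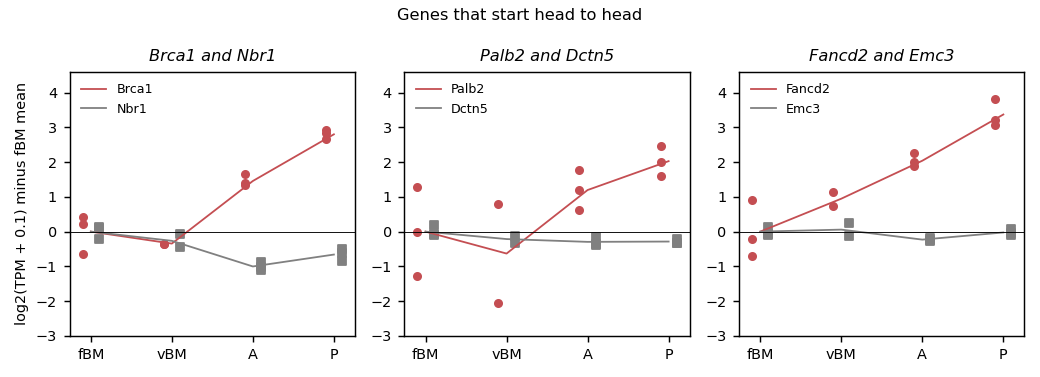
Level of Brca1, Palb2 and Fancd2 (circles) and of the gene that starts head to head with each (squares) as log2(TPM + 0.1) minus the mean of the fBM-MSC libraries: each symbol is 1 library and lines join tissue means. The P-MSC means of Brca1, Palb2 (adjusted p = 0.103) and Fancd2 lie above 0, while those of Nbr1, Dctn5 and Emc3 are near or below 0.

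The libraries carry no strand information, so reads from exons that 2 genes share on opposite strands cannot be told apart. Fanci shares 665 exon bases with Polg, the mitochondrial DNA polymerase (13.7 ± 1.38 TPM in P-MSCs, log2 fold change 0.49 ± 0.10, adjusted p = 0.00226), Fanca 777 with Zfp276 (0.36 ± 0.29, adjusted p = 0.342) and Rad54l 155 with Lrrc41 (-0.16 ± 0.08, adjusted p = 0.133). Fancd2 shares 260 with Fancd2os, which had at most 2 expected counts in any library, and Brca2 shares 386 with Gm42529, not analysed here. The values of these genes are uncertain by that overlap. Brca1, Palb2, Bard1 and Blm share no exon bases with an annotated gene.

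At the promoters the chromatin was open in every tissue. Within 1 kb of a start site, at the study's threshold of 7 on the -log10 q, a summit was listed for 9 of 9 genes in fBM-MSCs, A-MSCs and P-MSCs and for 8 of 9 in vBM-MSCs, where 87.1%, 89.6%, 88.8% and 89.0% of tested genes had one. In all 4 lists it was 8 of 9, against 83.1% of tested genes. The missing one was Fancd2 in vBM-MSCs, whose summit had a -log10 q of 6.23. Presence of a summit was therefore near the background and did not set the tissues apart. There is 1 pooled list per tissue, so the heights below have no replicate check and no test.

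By height, Rad54l stood out. The fold enrichment of its promoter summit over the genome-wide background was 21.3 in P-MSCs and 12.5 in A-MSCs, against 11.8 in vBM-MSCs and 10.7 in fBM-MSCs, and the log2 ratio of P-MSCs to the mean of the others, 0.88, was above 98.9% of the 9573 genes with a summit in all 4 lists. Fanca was at 24.3, 17.3, 11 and 19.5 in the same order (0.65, above 95.4%), and Palb2, whose RNA did not pass the test, at 19.9, 15.4, 12.9 and 11.8 (0.58, above 93.3%). Bard1 had the tallest summits after Brca1 in the marrow lists and the tallest of all in A-MSCs and P-MSCs, at 43.4, 44.1, 26.1 and 29.1. Blm was at 23.9, 18.0, 18.8 and 18.0, Fanci at 11.4, 7.36, 10.3 and 9.20, and Brca2 at 11, 14.0, 8.46 and 7.36.

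Brca1 did not follow. Its highest summit, between bases -763 and -826 from the start and thus inside the neighbour Nbr1, was at 30.5, 35.7, 33.1 and 34.6, a log2 ratio of -0.17 that was above 13.5% of genes. The summit nearest to its start was at 8.09, 8.09, 8.09 and 8.46, at bases 67, -49, -110 and -208 from the start and so not at 1 position, while the TPM of Brca1 rose from 0.180 ± 0.0985 in fBM-MSCs to 1.77 ± 0.172 in P-MSCs (SD, n = 3 each). Fancd2 was at 6.99, 6.25, 5.15 and 7.36, with no step from marrow to lung. These summits, at bases -133 to -193, lie inside the neighbour Emc3, which starts at base -44. The summits of Palb2 (bases -47 to -89) and Rad54l (-67 to -148) lie between their own start and that of Dctn5 or 2510003B16Rik. These heights therefore cannot be assigned to either gene of a pair. Over all genes the P-MSC list ran higher (median log2 ratio 0.15, with 71.0% of genes above 0), and the median of the 8 genes with a summit in all lists was 0.41, with 7 above 0.

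**Figure D5:**
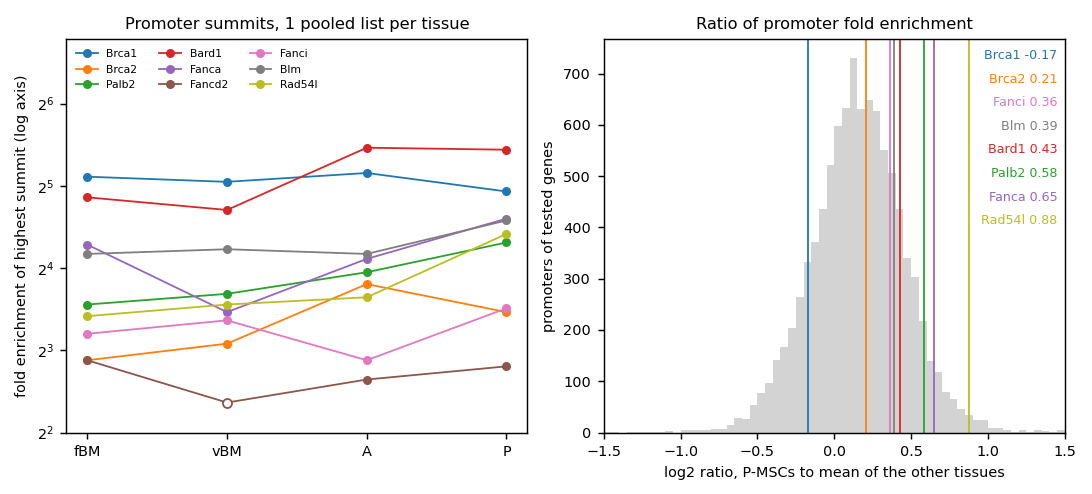
Left, fold enrichment (log axis) of the highest ATAC-seq summit within 1 kb of the start of each gene in the pooled list of each tissue, with an open circle where the -log10 q was under 7; right, the log2 ratio of P-MSCs to the mean of the other tissues for the promoters of tested genes (bars count promoters), with a line for each of the 8 genes that have a summit in all 4 lists. Rad54l (0.88), Fanca (0.65) and Palb2 (0.58) lie in the right tail and Brca1 (-0.17) left of the median of all (0.15).

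The promoters with the highest ratios, Rad54l, Fanca and Palb2, are shown with that of Brca1, whose height did not follow its RNA. They run 5′ to 3′ from RefSeq on GRCm38 (the build of mm10) and hold no annotated exon: each ends at the base before the outermost annotated start, predicted transcripts included, and begins after the annotation of a neighbour or at most 200 bases before the curated start. The outermost start, which also bounds the gene positions given above, lies 10 bases before the curated start in Rad54l, 75 in Fanca and 34 in Palb2, and is the curated start itself in Brca1. Capitals mark CCAAT, the box read by the factor NF-Y, on the strand of the gene. Both CCAAT of Fanca lie after its outermost start, so the window around the first is shown on its own.
Rad54l (chr4:116123701-116123839, minus strand): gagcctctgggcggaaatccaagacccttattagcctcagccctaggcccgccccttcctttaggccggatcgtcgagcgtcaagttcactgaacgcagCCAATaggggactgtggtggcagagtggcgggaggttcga
Fanca (chr8:123318652-123318776, minus strand): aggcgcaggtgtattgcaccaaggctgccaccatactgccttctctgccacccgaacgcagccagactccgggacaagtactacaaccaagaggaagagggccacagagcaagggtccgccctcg
Brca1 (chr11:101551956-101552106, minus strand): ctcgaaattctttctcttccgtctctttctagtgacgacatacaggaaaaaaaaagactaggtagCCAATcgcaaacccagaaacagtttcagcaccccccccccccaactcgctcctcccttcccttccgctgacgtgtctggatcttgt
Palb2 (chr7:122132981-122133040, minus strand): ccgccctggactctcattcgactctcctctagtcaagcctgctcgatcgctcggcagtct
Fanca, window around CCAAT (chr8:123318612-123318636, minus strand): atgctcctagCCAATgagcgccagc

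A set of 4 short motifs was searched on both strands from 250 bases before to 50 after the start of a curated transcript, in the 8 of 9 genes that the RefSeq table holds. The E2F motif (the form TTCCCGC, also the forms TTCGCGC and equally TTGCCGC, or else TTGGCGC) was in 5 of 8 promoters, while 17.4% of 9175 promoters of tested genes held it. CCAAT was in 5 of 8 against 38.6%, the CHR motif (TTTGAA or TTCGAA), an element of late cell cycle genes, in 1 of 8 against 13.1%, and the GC box (GGGCGG) in 6 of 8 against 66.1%. CCAAT and TTGGCGC can share letters on opposite strands and did so in none of these promoters. The E2F matches were at position 22 from the start in Brca1, -168 in Brca2, -208 in Bard1, 19 in Fanci and -142 in Blm, counted from 1 at the curated start and from -1 upstream. In Brca2, Bard1 and Blm, predicted transcripts begin 150 to 324 bases before that start, so these matches count differently from the gene positions given above. Blm has a further curated start, from which its match is at -21. Rad54l, Fanca and Palb2, the promoters with the highest ratios, had none of these E2F forms and 1, 2 and 1 CCAAT matches, in Rad54l and Fanca at -50 alike, and in Palb2 after the start, outside the stretch shown. The windows around the E2F matches follow, with the match in capitals as it reads on the strand of the gene.
Brca1 (chr11:101551918-101551944, minus strand): ctagcgctagGCGCCAAgcggccggtt
Brca2 (chr5:150522443-150522469, plus strand): ttaggccacaGCGGGAAacagacacac
Bard1 (chr1:71103164-71103190, minus strand): gccgctcagtTTCCCGCtcaggaagtt
Fanci (chr7:79392346-79392372, plus strand): gtggagtagaGCGGGAAttttggaagg
Blm (chr7:80535124-80535150, minus strand): atcatccttcTTGCCGCgcagagcgtg

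A match is a description of the letters and not a binding site or a cause, and the absence of a match says only that these letters are not in the window. Of the 5 genes with an E2F match, Brca1, Bard1, Fanci and Blm differed among the tissues and Brca2 did not pass that test. Of the 3 without one, Rad54l and Fanca differed and Palb2 did not pass.

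Away from their own promoters the 9 genes had few summits. In the gene bodies, Fanca had 2 in each marrow list and 3 in those of A-MSCs and P-MSCs, and 1 of its intronic sites was shared by all 4 tissues, at 9.20, 8.46, 8.46 and 6.99 in the order P, A, vBM and fBM. Blm had 3 in fBM-MSCs, 1 each in vBM-MSCs and A-MSCs and 0 in P-MSCs, the tissue where its RNA was highest. Brca1 had 0 in all 4 lists, in its body and within 10 kb on either side. The tallest nearby site lay downstream of Palb2 and was shared by all tissues, at 33.1, 32.7, 25 and 21.3. Summits at the starts of other genes were not left out here, so this site may be the promoter of another gene.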

How the data were processed

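RNA-seq was available as 11 gene tables and ATAC-seq as 4 pooled peak lists. The authors quantified paired, unstranded Smart-seq2 reads on mm10 by RSEM with STAR. Their deposited values per gene are RSEM's expected count (not normalized), TPM and FPKM. ATAC-seq reads went through TrimGalore, Bowtie, duplicate removal by Picard and a Tn5 shift before the authors called peaks by MACS2. The deposited lists give each summit's fold enrichment (a ratio over the genome-wide background) and its −log10 q. Versions are not given in the sources used here. Smart-seq2 has no molecular identifiers, so limits from a count of 0 cover counting error only. RSEM divides reads shared between genes, and pooling removes the replicates of the ATAC-seq.

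The rounded counts were tested by edgeR 4.0.16 (R 4.3.3, TMM, quasi-likelihood F test, two-sided, Benjamini-Hochberg adjusted p under 0.05 over 12509 genes), 1 model of 4 tissues in 11 libraries, for genes whose CPM reached 1 in 2 or more libraries. P-values measure only the spread between these libraries, which may share mice. The vBM-MSC library numbered 3 was not used here. Alternatives were DESeq2 1.42.0, RLE factors, no filter, limma 3.58.1 on log2(TPM + 1) or log2(TPM + 0.1), FPKM levels, a replicate block, a cell cycle covariate, pairs fitted alone and each library left out. The edgeR fit and the assignment of summits were tested on simulated data. Summits were assigned to curated RefSeq starts of GRCm38 (11519 tested genes). The genes and lists were chosen with earlier results of these data known. Genes named from a list were its 3 called genes with the largest change in P-MSCs, up to 3 called in the opposite direction, the 10 most like the group, head-to-head neighbours within 1 kb, and Pcna, Mcm5, Mki67 and Top2a.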

Additional observations from a re-analysis of the deposited data

How the results depend on the processing

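All 9 genes kept a positive log2 fold change in P-MSCs under 17 of 18 alternatives. The exception was the fit with the S phase and mitosis mean as a covariate, which called 0 of 12509 genes in this contrast because 99.4% of that mean's variance lay between tissues. That fit gave log2 fold changes, each with an adjusted p of 1, of 1.99 for Brca1, 8.10 for Brca2, -17.1 (reversed) for Palb2, 6.69 for Bard1, 9.51 for Fanca, 15.9 for Fancd2, 5.45 for Fanci, 8.36 for Blm and 1.46 for Rad54l. It called 0 of the 9 genes across the 4 tissues, in P-MSCs against the others, in marrow against non-bone marrow, and for P-MSCs against fBM-MSCs, vBM-MSCs and A-MSCs and A-MSCs against fBM-MSCs and vBM-MSCs. Of all tested genes it called 21.7% across the 4 tissues, 7 for P-MSCs against A-MSCs and 0 in the other comparisons named.

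Leaving out each fBM-MSC, A-MSC or P-MSC library gave 6 to 8 genes across the 4 tissues, 6 to 9 higher in P-MSCs, 7 to 8 for marrow against non-bone marrow, 6 to 8 for P-MSCs against fBM-MSCs, 6 to 8 against vBM-MSCs, 1 to 6 against A-MSCs, 5 to 6 for A-MSCs against fBM-MSCs, 3 to 6 against vBM-MSCs and 0 to 1 between the marrow sources, where the 1 came without fBM-MSC replicate 1. Of all tested genes, these fits called 52.4% to 60% across the 4 tissues, 42.7% to 47.8% for marrow against non-bone marrow and 8.71% to 13% between the marrow sources. Higher in P-MSCs were 17.3% to 23.5% against the others, 19.3% to 22.9% against fBM-MSCs, 14.4% to 19.4% against vBM-MSCs and 10.3% to 16.6% against A-MSCs. Higher in A-MSCs were 17% to 19.5% against fBM-MSCs and 9.32% to 14.3% against vBM-MSCs. With each of the 11 libraries left out, the log2 fold changes in P-MSCs ranged from 2.66 to 2.92 for Brca1, 2.38 to 3.18 for Brca2, 1.40 to 4.23 for Palb2, 2.13 to 4.70 for Bard1, 2.38 to 2.80 for Fanca, 2.29 to 2.93 for Fancd2, 2.20 to 2.38 for Fanci, 2.16 to 2.67 for Blm and 3.21 to 3.66 for Rad54l. P-MSCs against A-MSCs was the least settled count: 5 by DESeq2, 8 by limma on log2(TPM + 1), 7 on log2(TPM + 0.1) and 6 with the pair fitted alone, in place of 3. Of all tested genes, 16.5%, 25.2%, 24.4% and 22.1% were higher under these settings, in place of 14.9%. The cause was not tested. Palb2 passed by limma (0.81, adjusted p = 0.00949 on log2(TPM + 1); 1.84, adjusted p = 0.0307 on log2(TPM + 0.1)).

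Replicate numbers were not shown to pair the libraries: deviations of same-numbered libraries correlated at -0.028 to 0.125 (15 pairs), those of other numbers at -0.125 to 0.109 (30 pairs). With the replicate number as a block, Palb2 was called (2.51, adjusted p = 0.0304), which makes 9 genes higher in P-MSCs, beside 22.3% of tested genes. The other 8 genes stayed called. For the 9 genes, the counts of the other comparisons moved by at most 1, and of the recombination partners 24 were higher and 2 lower in P-MSCs, in place of 26 and 1.

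At the stricter -log10 q of 20, summits were listed for 6, 7, 7 and 8 genes in fBM, vBM, A and P, beside 63.6%, 69.1%, 70.5% and 71.6% of tested genes. On log2(TPM + 1) with the mean of the S phase and mitosis genes subtracted, the difference of P-MSCs from the others was -0.14 for Rad54l and -1.49 to -0.52 for the other 8 genes. With the S phase genes alone subtracted, it turned to 0.10 for Rad54l and was -1.26 to -0.29 for the other 8. With the mitosis genes alone subtracted, it was -0.37 for Rad54l and -1.72 to -0.76 for the other 8. The pseudocount of 1 understates the change of such low genes. By fitted fold change, 8 of 9 were above the median S phase gene (2.12). The margins of Brca2 (0.47), Bard1 (0.59), Fanci (0.19) and Blm (0.24) were smaller than their SE. Only Brca1, Bard1 and Rad54l were above the median mitosis gene (2.66), and the others were below it.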
